A study of Rattus norvegicus with 8 samples.

Results

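The genes described here are 10 rat genes of Wnt signaling, namely 4 Wnt ligands (Wnt2, Wnt4, Wnt5a and Wnt16), the Wnt receptor Ror2, and 5 secreted Wnt antagonists (Sfrp1, Sfrp2, Sfrp4, Frzb and Dkk3). They were chosen by symbol from the 37209 genes of the count table, by a rule that takes in no measured value. All 10 were found, and 9 had enough reads for a test. Between injured and control carotid arteries, Wnt16, Sfrp4 and Ror2 were upregulated, Frzb was downregulated, and the other 5 tested genes did not pass the criteria. The Frzb call was the least stable, since it was made in 2 of the 8 fits that each left out 1 artery. Neither Frzb nor Wnt16 was called when the replicate number was used as a block.

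The study mechanically injured the inner wall of the left carotid artery of male Sprague-Dawley rats with a balloon catheter. Levels of mRNA were measured by transcriptome sequencing in 4 injured arteries, harvested 2 weeks after surgery. The 4 controls were undamaged right carotid arteries, described as self-controls, so the groups share rats and each control came from an operated animal. Neither genotype nor treatment was varied beyond the injury, and the age of the rats is not given in the sources used here. The labels number the arteries 1 to 4 in each group without saying that a number marks a rat. The tests therefore treated the 8 arteries as independent, except with the replicate block. Their p-values set the difference between the groups against the spread between these arteries. Because the groups share rats, this independence may not be met, and the effect on the p-values is not known.

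Wnts are secreted, lipid-modified glycoproteins that bind Frizzled receptors. With an LRP5 or LRP6 co-receptor they stabilize beta-catenin, which then activates target genes with TCF/LEF factors. Other Wnts, of which Wnt5a is the best known, act with Ror2, a receptor tyrosine kinase family member, on cell shape and movement without beta-catenin. Secreted Frizzled-related proteins, among them Sfrp1, Sfrp2, Sfrp4 and Frzb (also called Sfrp3), carry a domain like the ligand-binding part of Frizzled and can bind Wnts outside the cell. Dkk3 is the divergent member of the Dickkopf family, whose other members block LRP co-receptors. In the arterial wall, Wnt signaling is known for its part in smooth muscle cell growth and migration.

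Upstream sequences are shown for the called genes that the RefSeq promoter table (build GRCr8) held, since these are the genes whose mRNA level passed the criteria. The table held 7 of the 10 genes. Each line gives the 250 bases before the annotated start, 5′ to 3′ on the strand of the gene, and capitals mark a match to a searched motif. Ror2 lies on the plus strand at chr17:12124499-12124748, Wnt16 on the plus strand at chr4:51786478-51786727, and Frzb on the minus strand at chr3:85772097-85772346.
Ror2: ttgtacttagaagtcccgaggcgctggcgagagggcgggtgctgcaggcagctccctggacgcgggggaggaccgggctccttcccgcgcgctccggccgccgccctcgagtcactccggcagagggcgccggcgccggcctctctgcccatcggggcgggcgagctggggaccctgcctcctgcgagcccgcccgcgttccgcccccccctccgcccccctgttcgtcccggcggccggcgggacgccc
Wnt16: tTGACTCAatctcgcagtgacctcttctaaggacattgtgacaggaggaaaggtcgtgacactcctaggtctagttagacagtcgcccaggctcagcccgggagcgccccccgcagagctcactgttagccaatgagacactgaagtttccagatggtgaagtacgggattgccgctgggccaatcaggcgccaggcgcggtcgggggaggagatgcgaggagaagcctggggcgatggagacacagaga
Frzb: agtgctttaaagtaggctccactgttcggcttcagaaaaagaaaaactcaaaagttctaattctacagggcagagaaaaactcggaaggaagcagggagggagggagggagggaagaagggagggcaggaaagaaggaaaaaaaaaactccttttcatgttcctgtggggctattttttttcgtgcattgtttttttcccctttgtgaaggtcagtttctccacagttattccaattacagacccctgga

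The G+C content of these windows was 78.4% for Ror2, 58.8% for Wnt16 and 43.6% for Frzb, while the median of 33465 promoters was 51.2%. Motifs were searched on both strands of the 250 bases. The TCF/LEF motif, searched as CTTTG followed by 2 bases that are each A or T, matched in 14.9% of all promoters and in none of the 7 windows. The AP-1 motif, TGANTCA, matched in 6.34% of all promoters and among the 7 windows only in Wnt16, where the match began 249 bases before the start and overlapped no other match. The CArG box, to which serum response factor binds, matched in 1.5% of all promoters, and the TATA box in 16.1%. Neither matched in the 7 windows. A match is a run of letters and shows no binding, and an unmatched motif says only that its letters are not in this window.

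Reads were counted per gene, and the counts are given as CPM, counts scaled to a common library size with TMM factors. The total count was 13470754 to 15276952 per control artery and 11459632 to 16658089 per injured artery. A count of 3, taken as the floor, was 0.18 to 0.262 CPM, and this covers counting error only. Control artery 4 stood apart. Its log2 CPM across genes correlated with the other controls at 0.843 to 0.859, against 0.984 to 0.985 among the others, and with injured artery 3 at 0.930. The sum of 9 sympathetic neuron markers, which include Th and Dbh for noradrenaline synthesis, was 8694 CPM in control artery 4 and 2303 CPM in injured artery 3. It was 161 CPM in injured artery 1 and 14.9 to 21.8 CPM in the remaining arteries, so injured artery 1 also stood above these. Where leaving out control artery 4 or injured artery 3 changes a call of a Wnt pathway gene below, that is stated. Calls of cell type markers and of the genes most like each Wnt gene are given for all 8 arteries only. The labels describe the tissue as carotid artery, while their extraction text names prefrontal cortex. The 8 contractile smooth muscle markers summed to 10600 to 51400 CPM over the 8 arteries and 8 cortical neuron markers to 5.26 to 26.2 CPM. Cortical marker Neurod6 had at most 2 counts.

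A gene was called at a false discovery rate (FDR) under 0.05 together with a fold change above 2, in edgeR's quasi-likelihood test over all 14359 genes tested. Of the 9 tested Wnt genes, 3 were called higher and 1 lower after injury. Over all genes tested, 8.31% were called higher and 2.57% lower. The CPM of every injured artery lay above that of every control for 3 of the 9, and for none of them below. The same held for 14.2% (above) and 9.51% (below) of all genes tested. The median log2 fold change of the 9 was 0.48, and 6 were positive, while the median of all genes tested was -0.06. With library totals as the only scaling, the median of all genes moved from -0.06 to 0.12, and log2 fold changes near 0 are to be read relative to that shift.

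**Figure D1:**
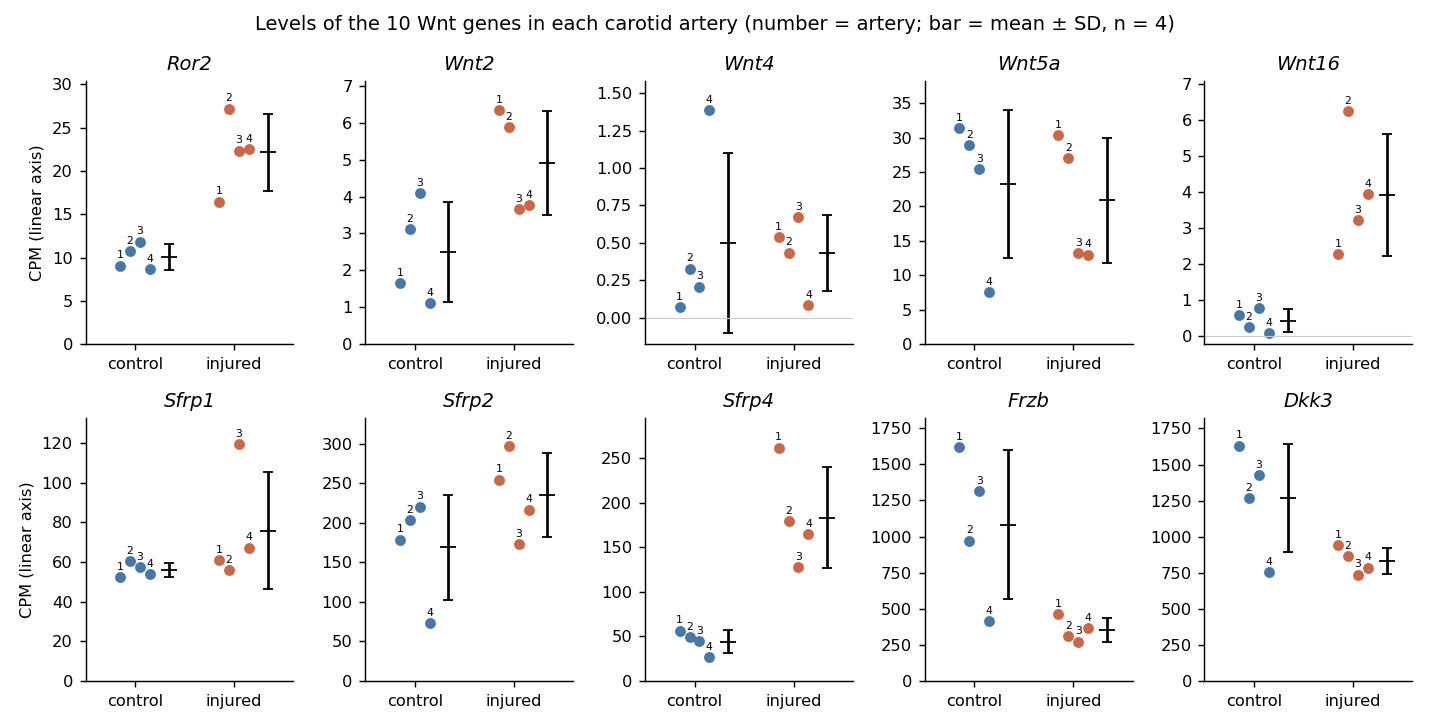
CPM (linear axis, with its own scale in each panel) of the 10 Wnt genes in the 4 control arteries (blue) and the 4 injured arteries (orange), numbered, with the mean and SD of each group (bars, n = 4). Ror2, Wnt16 and Sfrp4 had no overlap between the groups, whereas control artery 4 lay among the injured arteries for Frzb and Dkk3.

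Among the ligands, Wnt16 rose after injury. Wnt16 is a Wnt ligand known from bone, joints and blood stem cell development. It had 8, 3, 11 and 1 counts in control arteries 1 to 4, and 38, 86, 57 and 48 counts in injured arteries 1 to 4. The injured arteries all lay above the controls, and the controls were close to the floor. The count of 1 in control artery 4 has a 95% exact Poisson interval of 0.0253 to 5.57 and the 86 of injured artery 2 one of 68.8 to 106, for counting error only. On the CPM scale Wnt16 was 0.414 ± 0.313 (SD, n = 4) in the controls and 3.91 ± 1.69 (SD, n = 4) after injury, so the mean was 9.46 times as high. The log2 fold change was 3.20 (standard error 0.61, 95% confidence interval 1.79 to 4.62, FDR = 0.0103 in edgeR's test), and the exact permutation test of log2 CPM over 70 relabellings gave p = 0.0286, two-sided, the smallest p that 4 arteries against 4 allow. With each artery left out in turn, Wnt16 was called in all 8 fits, at log2 fold changes of 2.84 to 3.67. The fit with the replicate number as a block gave 3.27 and did not call it (FDR = 0.0545 in edgeR's test).

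Wnt2, a ligand known from lung and vascular development, had 1.66, 3.12, 4.09 and 1.11 CPM in the controls and 6.34, 5.88, 3.65 and 3.76 CPM after injury. Control artery 3 lay above injured arteries 3 and 4, and the groups overlapped. With a log2 fold change of 0.98 (standard error 0.43), Wnt2 was not called (FDR = 0.162 in edgeR's test, exact permutation p = 0.0857, two-sided). The sign was the same in all 8 fits with one artery left out, at 0.73 to 1.32.

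Wnt5a, the ligand that signals through Ror2, showed no shift of the group means beyond its spread. It had 31.3, 28.9, 25.4 and 7.58 CPM in the controls and 30.4, 27.0, 13.2 and 13.0 CPM after injury. Each group spanned a wide range, with control artery 4 the lowest of the 8 and injured arteries 1 and 2 at the level of the other controls. The log2 fold change was -0.16 (standard error 0.47, 95% confidence interval -1.23 to 0.92, FDR = 0.85 in edgeR's test), an interval that holds changes of a factor of 2 downward. Its sign was not fixed by the scaling, since library totals gave 0.04.

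Wnt4, a ligand of kidney and gonad development, was near the floor and had too few counts for the test. Its counts were 1, 4, 3 and 20 in the controls and 9, 6, 12 and 1 after injury, so that the highest count was in control artery 4 and the groups overlapped. The exact permutation test gave p = 0.886, two-sided. These counts are too low and too variable to call a difference in either direction.

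Ror2, the receptor, was upregulated in the injured arteries. The controls had 9.08, 10.7, 11.9 and 8.69 CPM and the injured arteries 16.5, 27.2, 22.4 and 22.5 CPM. The lowest injured artery exceeded the highest control, and control artery 4 lay with the other controls. The means were 10.1 ± 1.48 CPM (SD, n = 4) and 22.1 ± 4.41 CPM (SD, n = 4). This was a rise of 1.13 on the log2 scale (standard error 0.19, 95% confidence interval 0.69 to 1.57, FDR = 0.00585 in edgeR's test, exact permutation p = 0.0286, two-sided). Ror2 was called in all 8 fits with one artery left out, at 1.02 to 1.25. Its nearest relative Ror1, also a Wnt receptor, had a log2 fold change of -0.74 and was not called (FDR = 0.257 in edgeR's test), but without control artery 4 it was called lower, at -1.03 (FDR = 0.0126 in edgeR's test). For every 100 counts of Ror1 there were 10.1 to 44.0 counts of Ror2 in the controls and 36.8 to 86.2 after injury, and these ranges overlapped through control artery 4.

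Of the secreted Frizzled-related proteins, Sfrp4 rose and Frzb fell, while Sfrp1 and Sfrp2 did not pass the test. Sfrp4 is known for its role in bone, where its loss thins the cortex. It had 56.6, 48.8, 44.6 and 26.9 CPM in the controls and 262, 180, 128 and 165 CPM after injury. Every injured artery held more than 2 times the level of the highest control. The means were 44.2 ± 12.6 CPM (SD, n = 4) and 184 ± 56.7 CPM (SD, n = 4), a ratio of 4.15. On the log2 scale the fold change was 2.05 (standard error 0.29, 95% confidence interval 1.39 to 2.72, FDR = 0.00274 in edgeR's test, exact permutation p = 0.0286, two-sided). With one artery left out it ranged from 1.83 to 2.19 and Sfrp4 was called each time.

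Frzb moved the other way. The controls had 1620, 972, 1313 and 415 CPM and the injured arteries 462, 311, 272 and 366 CPM. Control artery 4 lay below injured artery 1, so the groups overlapped, while the other controls had at least 972 CPM. The means were 1080 ± 516 CPM (SD, n = 4) and 353 ± 82.5 CPM (SD, n = 4). The log2 fold change was -1.62 (standard error 0.39, 95% confidence interval -2.52 to -0.71, FDR = 0.0268 in edgeR's test, exact permutation p = 0.0571, two-sided). The call was the least stable of the 4. Without control artery 4 the log2 fold change was -1.89 (FDR = 0.000928 in edgeR's test), and Frzb was also called without injured artery 1. With any other artery left out, in 6 fits, it was not called, with an FDR of up to 0.0863 in edgeR's test, and the fit with the replicate number as a block gave -1.49 (FDR = 0.0756).

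Sfrp1, a Wnt antagonist also made by vascular cells, had 52.2, 60.3, 57.4 and 53.9 CPM in the controls, the narrowest spread of the antagonists, and 61.0, 55.8, 119 and 67.2 CPM after injury. The difference lay mainly in injured artery 3, and without it the log2 fold change fell from 0.44 (standard error 0.24, FDR = 0.253 in edgeR's test) to 0.13. Sfrp2, which in fibroblasts is among the common secreted products, had 179, 204, 221 and 72.7 CPM in the controls and 255, 297, 173 and 217 CPM after injury. Control artery 4 was the lowest and injured artery 3 lay within the controls. The log2 fold change of 0.48 (standard error 0.34, 95% confidence interval -0.29 to 1.25) was not called (FDR = 0.378 in edgeR's test) and was 0.22 without control artery 4.

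Dkk3 had 1631, 1266, 1426 and 754 CPM in the controls and 943, 865, 737 and 786 CPM after injury. Control arteries 1 to 3 lay above all injured arteries and control artery 4 lay among them. The log2 fold change of -0.61 (standard error 0.24, 95% confidence interval -1.16 to -0.06) was not called (FDR = 0.126 in edgeR's test, exact permutation p = 0.114, two-sided). Without control artery 4 it was -0.80 with an FDR of 0.00344 in edgeR's test, a fold change below 2 and so again not called.

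**Figure D2:**
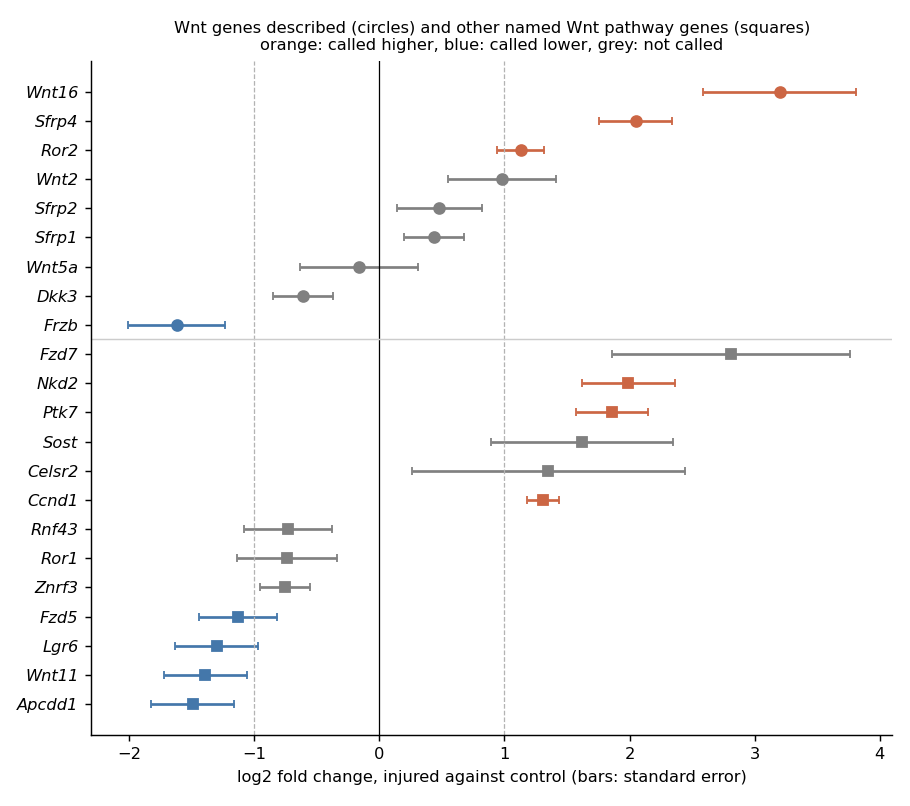
Log2 fold change, injured against control (x axis), of the 9 tested Wnt genes (circles) and of 13 other named Wnt pathway genes (squares), with bars of 1 standard error, orange for called higher, blue for called lower and grey for not called. Dashed lines mark a fold change of 2. Wnt16 at 3.20 and Frzb at -1.62 were the highest and lowest of the 9.

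The balance between secreted Frizzled-related proteins was compared within each artery, where differences in library size cancel. These pairs were chosen after the values were seen, and they are descriptions without a test. For every 100 counts of Frzb there were 3.50, 5.02, 3.40 and 6.48 counts of Sfrp4 in control arteries 1 to 4, and 56.7, 57.8, 46.9 and 45.2 in injured arteries 1 to 4. The groups were far apart and each was narrow, with a difference of 3.53 on the log2 scale, and control artery 4 lay with the other controls. Sfrp4 was also higher against Sfrp2, with 60.4 to 103 counts per 100 after injury and 20.2 to 37.0 in the controls. Sfrp1 against Sfrp2 overlapped between the groups, at 26.0 to 74.1 and 18.8 to 68.9 counts per 100, and so did Wnt5a against its close relative Wnt5b, at 85.2 to 140 and 68.0 to 142 counts per 100.

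Contractile smooth muscle markers were lower beside Frzb, which was called, and Dkk3, which was not. Of the 8 markers, 6 were called lower and none higher, with a median log2 fold change of -1.52, and their summed level was 51400, 44140, 37970 and 17680 CPM in the controls and 16770, 14270, 10600 and 13340 CPM after injury. Myh11, the smooth muscle myosin heavy chain, had a log2 fold change of -1.72 (FDR = 0.0222 in edgeR's test). For every 100 counts of Myh11 there were 9.09, 7.19, 10.01 and 8.28 counts of Frzb in control arteries 1 to 4 and 9.13, 8.55, 9.93 and 10.3 in the injured arteries. This ratio overlapped between the groups, with a difference of 0.14 on the log2 scale (SD 0.20 in the controls and 0.12 in the injured arteries), and control artery 4 no longer stood apart. Against each of the 8 contractile genes in turn, the difference of Frzb was -0.73 to 0.29 on the log2 scale with a median of -0.05. The groups overlapped for 6 of the genes, while the ratio was lower after injury against Lmod1 and Smtn. Dkk3 differed in this. For every 100 counts of Myh11 there were 9.16, 9.36, 10.9 and 15.03 counts of Dkk3 in the controls and 18.6, 23.8, 26.9 and 22.1 after injury, without overlap, and the median difference against the 8 genes was 0.88 on the log2 scale. The groups did not overlap for 5 of the 8 genes and overlapped for Smtn, Lmod1 and Myocd. In these whole arteries, fewer cells of a type and less RNA per cell cannot be told apart, and the part of smooth muscle content in the Frzb result was not tested.

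**Figure D3:**
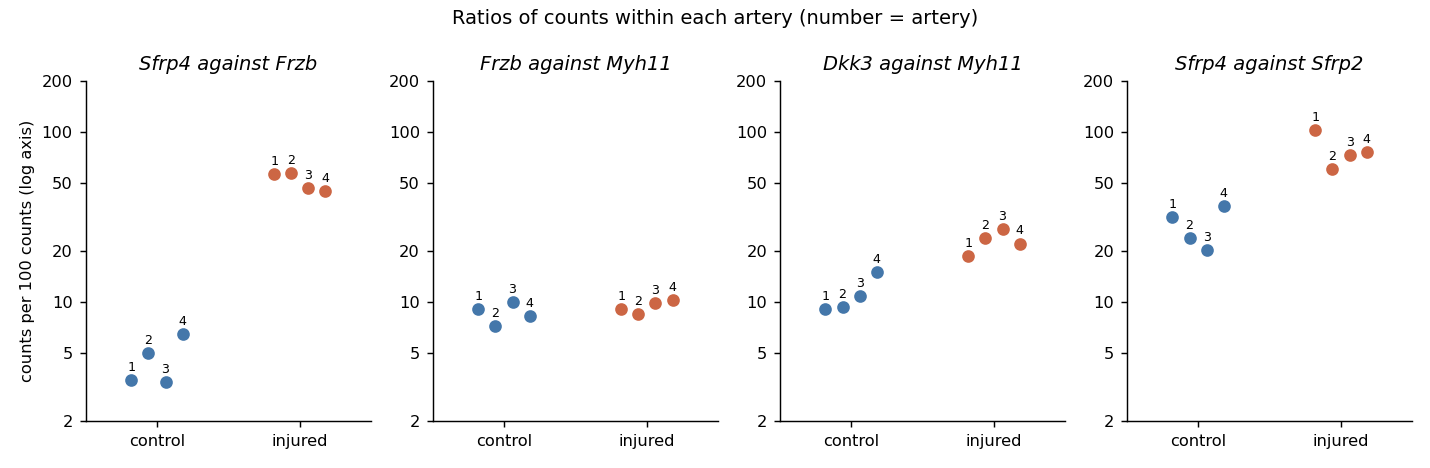
Ratios of counts within each artery, as counts of the first gene per 100 counts of the second (log axis), in the 4 control (blue) and 4 injured (orange) arteries, numbered. Sfrp4 against Frzb, Dkk3 against Myh11 and Sfrp4 against Sfrp2 had no overlap between the groups, and Frzb against Myh11 lay at 7.19 to 10.3 in all 8 arteries.

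Other cell type markers moved beside the genes that rose. All 8 tested macrophage markers were called higher, with a summed level of 177 to 254 CPM in the controls and 1660 to 2566 CPM after injury, and so were all 8 proliferation markers, at 10.98 to 18.99 and 87.4 to 133 CPM. Of the 9 skeletal muscle markers 7 were called higher, at 84.5 to 253 and 304 to 1100 CPM, and of the 6 tested cartilage markers 4 were, at 17.3 to 27.7 and 126 to 410 CPM. The endothelial markers were mixed, with 3 called higher and 1 lower of 8, and edgeR and DESeq2 called no Schwann cell or sympathetic neuron marker, none of which had an unadjusted p under 0.05 in edgeR's test. Of 8 adipocyte markers edgeR called 0, while 1 was lower at an unadjusted p under 0.05 and was called by DESeq2. Adventitial fibroblast markers stayed mixed, with 1 called higher and 1 lower of 7 tested, and summed to 1486 to 3069 CPM in the controls and 1776 to 2927 CPM after injury. For every 100 counts of these fibroblast markers there were 1.45 to 2.08 counts of Sfrp4 in the controls and 6.94 to 8.95 after injury, and 4.89 to 7.19 and 8.70 to 11.5 counts of Sfrp2. Both ratios were higher after injury without overlap, while that of Ror2 overlapped. The genes in this sum did not move together. Pi16 had 460 to 772 CPM in the controls and 143 to 360 CPM after injury, while Dpt had 111 to 231.5 and 520 to 984 CPM. These ratios hold for the sum only, and Sfrp4 was not set against single fibroblast genes. Against the summed markers that were higher after injury, Sfrp4 overlapped between the groups, with differences on the log2 scale of -1.14 for macrophage, -1.26 for cartilage, -0.81 for proliferation and 0.08 for skeletal muscle markers. Wnt16 also overlapped against these 4 lists, at 0.32 to 1.66. Ror2 was lower without overlap against macrophage (-2.07), cartilage (-2.19) and proliferation markers (-1.74), and overlapped against skeletal muscle markers (-0.85). In the macrophage sum, Lyz2 had 40.8 to 79.6 CPM in the controls and 945 to 1755 CPM after injury. Mrc1 rose less, with 25.1 to 48.0 and 64.6 to 91.3 CPM. Ror2 was not set against single marker genes. Wnt5a was lower without overlap against all 4 lists, namely macrophage (-3.27), cartilage (-3.39), proliferation (-2.94) and skeletal muscle markers (-2.05). Any gene without a change falls against lists that rose, so these ratios say nothing further about Wnt5a. Against the adventitial fibroblast markers, Wnt5a differed by 0.00 on the log2 scale and overlapped. The part of these cell types in the results for Wnt16, Sfrp4 and Ror2 was not tested.

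Across the 8 arteries, the log2 CPM of Frzb and Dkk3 moved together (Pearson r = 0.97), as did those of Ror2 and Wnt16 (r = 0.95) and of Wnt16 and Sfrp4 (r = 0.90). These values describe likeness over 8 arteries that fall into 2 groups and share their libraries, and no p is given. Among all genes tested, the most like Ror2 was Adam8, a membrane metalloprotease of leukocytes (r = 0.9945), which was itself called higher at a log2 fold change of 1.62. The most like Sfrp4 was Tmem86a (r = 0.9902, called higher at 1.37) and the most like Wnt16 was Pip4k2a (r = 0.9909, not called). For Frzb it was Sparcl1, a matricellular protein (r = 0.9924, called lower at -1.17), and for Dkk3 it was Smoc1, a secreted calcium-binding protein (r = 0.9946, not called). The other nearest genes were Cd3g for Wnt2, Hgf for Wnt5a, Tax1bp3 for Sfrp1 and Apaf1 for Sfrp2, at r of 0.9549 to 0.9942.

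The other genes of the pathway were taken from 7 lists by role. Of 93 listed genes 92 were in the count table and 69 were tested, of which 3 were called higher and 4 lower, with a median log2 fold change of 0.05. Over all genes tested these shares were 8.31% and 2.57%, and no list was tested as a set. Of the 15 other ligands, 7 had no more than 10 counts in any artery, and 2 of these had 0 in every artery. Of the 6 tested, Wnt11, a ligand of the pathway without beta-catenin, was downregulated. It had 3.96, 4.76, 5.20 and 4.10 CPM in the controls and 1.68, 0.871, 2.64 and 1.64 CPM after injury, all below the controls (log2 fold change -1.39, standard error 0.33, FDR = 0.0234 in edgeR's test). Wnt11 was called in 4 of the 8 fits with one artery left out, and not with the replicate block (-1.47, FDR = 0.0552). Wnt10a had too few counts for the test, with 0, 0, 1 and 1 in the controls and 7, 5, 15 and 9 after injury, and was called higher by DESeq2 and when no filter was used.

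Among 13 other tested receptors and co-receptors, Ptk7 rose and Fzd5 fell. Ptk7, a pseudokinase co-receptor of planar cell polarity, had 6.63, 11.5, 9.22 and 9.80 CPM in the controls and 20.8, 50.1, 32.8 and 30.9 CPM after injury (log2 fold change 1.86, standard error 0.29, FDR = 0.00428 in edgeR's test). The groups did not overlap. Fzd5, a Frizzled receptor, had 3.96 to 8.20 CPM in the controls and 2.08 to 4.17 CPM after injury, which overlapped (log2 fold change -1.13, FDR = 0.0414 in edgeR's test). This call was made in 2 of the 8 fits with one artery left out and was lost without injured artery 3 (FDR = 0.0878), with the replicate block (FDR = 0.143), without a filter, and with upper-quartile factors or library totals. Ptk7 was called in all 8 of those fits and with the block. The Frizzled genes Fzd1, Fzd2 and Fzd4 were not called, at log2 fold changes of 0.13, 0.17 and -0.08. Fzd7 had the highest uncalled value, 2.81 (FDR = 0.0804 in edgeR's test), with all injured arteries above all controls, and control artery 4 held 1.39 CPM against at most 0.139 CPM in the other controls. Fzd7 was called without control artery 4 (FDR = 0.0011 in edgeR's test) and by DESeq2 (FDR = 0.0196).

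Of the 5 other tested inhibitors none was called by edgeR or DESeq2, and 0 had an unadjusted p under 0.05 in edgeR's test. Sost, an LRP antagonist of bone, had a log2 fold change of 1.62 (FDR = 0.174) and Sostdc1 one of 1.15. Receptor turnover and R-spondin genes held 2 called lower of 10 tested. Lgr6, an R-spondin receptor, fell from 138 ± 52.5 to 56.0 ± 16.8 CPM (SD, n = 4 each), and the groups overlapped through control artery 4 (log2 fold change -1.30, FDR = 0.0301 in edgeR's test). Lgr6 was called in 2 of the 8 fits with one artery left out, and not without injured artery 3 (FDR = 0.0685), with the replicate block (FDR = 0.054) or with upper-quartile factors. Apcdd1, a membrane-bound Wnt inhibitor, fell from 83.0 ± 28.7 to 29.6 ± 8.82 CPM (SD, n = 4 each), with no overlap between the groups (log2 fold change -1.49, FDR = 0.018 in edgeR's test). It was called in 4 of those 8 fits, with an FDR of up to 0.0667 in the others, and with the replicate block (FDR = 0.0325), but not in the test against a fold change of 2. The ubiquitin ligases Znrf3 and Rnf43, which remove Frizzled from the cell surface, had -0.75 (FDR = 0.0399) and -0.73 (FDR = 0.204), and neither passed both criteria.

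The 15 tested genes of the beta-catenin core had no call in either direction with edgeR or DESeq2, and a median log2 fold change of -0.09. At an unadjusted p under 0.05 in edgeR's test 3 were lower and 0 higher, among them Csnk1a1, the kinase that primes beta-catenin for degradation, at -0.45 (FDR = 0.0158, a fold change below 2). Ctnnb1, which encodes beta-catenin, was 372 ± 52.2 CPM in the controls and 362 ± 12.9 CPM after injury (SD, n = 4 each). Of the 11 tested target genes 2 were called higher. Ccnd1, the G1 cyclin, rose from 55.7, 70.1, 57.8 and 72.2 CPM to 139, 160, 167 and 171 CPM (log2 fold change 1.31, standard error 0.13, FDR = 0.000637 in edgeR's test). Nkd2, a feedback inhibitor of Dishevelled, rose from 20.8 to 43.3 CPM in the controls to 63.6 to 179 CPM after injury (log2 fold change 1.99, FDR = 0.00877 in edgeR's test). Both rose without overlap, beside the 8 proliferation markers. Axin2, the most widely used target of beta-catenin signaling, had a log2 fold change of -0.32 (standard error 0.19, FDR = 0.305 in edgeR's test), with 10.3 to 14.4 CPM in the controls and 7.33 to 11.9 CPM after injury. None of the 9 tested planar polarity genes was called by edgeR or DESeq2, and 1 was higher at an unadjusted p under 0.05 in edgeR's test. Celsr2 had the highest value there, 1.35 (FDR = 0.444), with 59.8 CPM in control artery 4 against at most 9.77 CPM in the other controls. Without control artery 4, 11 of the other pathway genes were called higher, with Wnt6, Fzd7, Sostdc1, Lef1, Cd44, Vangl2, Celsr1 and Celsr2 beside Ptk7, Nkd2 and Ccnd1. In the same fit 5 were called lower, namely Wnt11, Fzd5, Ror1, Lgr6 and Apcdd1. Calls also rose over all genes, with 1817 higher and 581 lower of 14758 tested in that fit. With all 8 arteries these were 1193 and 369 of 14359.

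**Figure D4:**
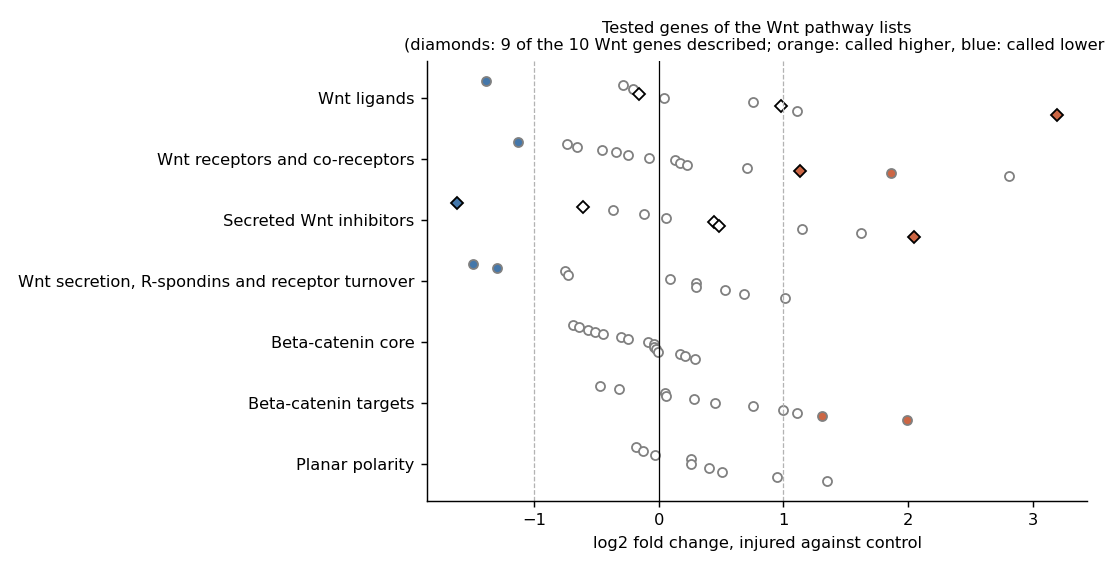
Log2 fold change, injured against control (x axis), of the tested genes of each Wnt pathway list (rows), with diamonds for the Wnt genes described and circles for the others, orange for called higher, blue for called lower and white for not called. Calls lay in the ligands, receptors, inhibitors, turnover genes and targets, and the 15 beta-catenin core genes had none.

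The fold changes of the 9 tested Wnt genes were compared over other scalings, filters, tools and sets of arteries. Over 16 alternatives, the log2 fold change of Sfrp4 was 1.83 to 2.24, that of Ror2 1.02 to 1.31 and that of Frzb -1.89 to -1.36, and the 15 alternatives that tested Wnt16 gave 2.84 to 3.67. Without control artery 4 and injured artery 3 together, Ror2 (1.06), Wnt16 (2.92), Sfrp4 (2.02) and Frzb (-1.78) were called and the other 5 were not. When the null hypothesis was a fold change of 2, Wnt16 and Sfrp4 alone were called.

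**Figure D5:**
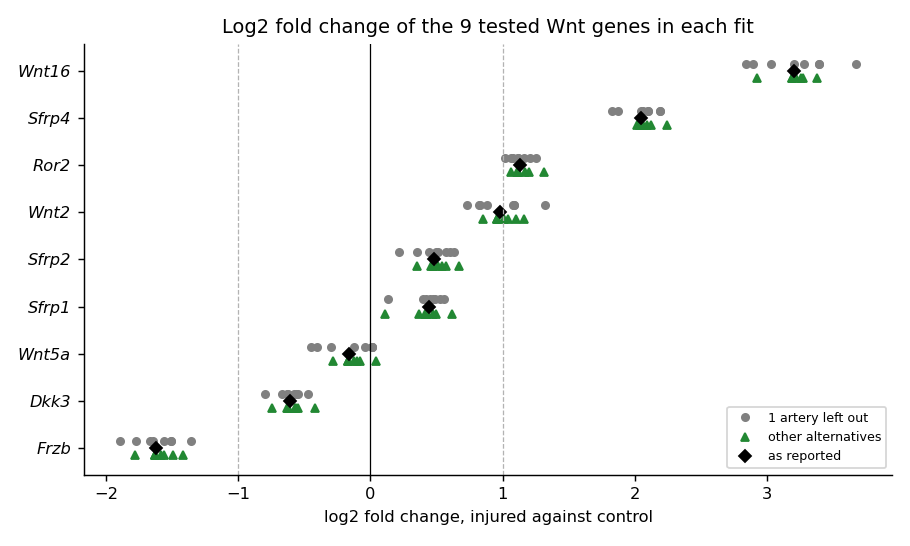
Log2 fold change, injured against control (x axis), of the 9 tested Wnt genes as reported (black diamonds), with one artery left out (grey circles) and under the other alternatives (green triangles). Only Wnt5a had values on both sides of 0, from -0.45 to 0.04.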

How the data were processed

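Transcriptome sequencing was carried out on 4 injured and 4 control carotid arteries. The authors deposited raw read counts per gene symbol, without normalization. The submitters' processing notes name HISAT2 2.0.4. The counting tool, the genome build and the strand setting are not given in the sources used here, so reads of overlapping or antisense genes cannot be separated. The total count per artery lay between 11459632 and 16658089.

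Counts were analysed in R 4.3.3 with edgeR 4.0.16 (TMM factors, filterByExpr, quasi-likelihood test, Benjamini-Hochberg adjustment over all 14359 genes tested), after the scripts had been tested on simulated data. The call criteria, FDR under 0.05 and a fold change above 2, were those of the study, which used DESeq. DESeq2 1.42.0, other scaling factors, other filters, other call rules, a replicate block and leaving out each artery were the alternatives. Leaving out control artery 4 with injured artery 3 was added after seeing the data. Standard errors were the log2 fold change divided by the square root of the F statistic. Single values were tested by exact permutation of log2 CPM (prior count 2).

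The genes and lists were chosen with earlier results of these data known. Named were the 10 Wnt genes, every other listed pathway gene that was called, the 3 highest and 3 lowest uncalled ones, the gene most like each Wnt gene by Pearson r, and markers moving beside a result. Wnt10a, Fzd1, Fzd2, Fzd4, Sostdc1, Ctnnb1, Csnk1a1, Axin2, the genes called without control artery 4 and the pairs for ratios were named after their values were seen. One listed gene, Axin1, was not analysed here. Promoters came from RefSeq (GRCr8), whose coordinates were not joined to the counts.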

Additional observations from a re-analysis of the deposited data

Results flagged for a closer look

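In groups of 4 arteries, the gap of an artery to its nearest neighbour was set against the group's range. It took up more of the range than Dixon's 95% critical value in 3 of 62 groups. Chance would give about 3.1 if the groups were independent, but they share the same arteries, so this number is no measure of how often arteries stand apart. All 3 outlying values were those of control artery 4. Its Fzd7 level of 1.39 CPM lay above the nearest control at 0.139 CPM, a gap of 0.9 of the range. Its Celsr2 level of 59.8 CPM lay above the nearest at 9.77 CPM, a gap of 0.859. Its 74.1 counts of Sfrp1 per 100 counts of Sfrp2 lay above the nearest at 29.6, a gap of 0.926, with Sfrp2 at 72.7 CPM and Sfrp1 at 53.9 CPM in that artery.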

How the results depend on the processing

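Sfrp4 kept its direction and its call in every alternative tried, and so did Ror2 except in the test against a fold change of 2, which did not call it. Wnt5a reversed with library totals, to 0.04, and at 0.01 without control artery 1, injured artery 3 or injured artery 4, uncalled throughout, and over the fits with one artery left out it ranged from -0.45 to 0.01. Library totals raised the share of higher calls over all genes, with 1424 higher and 249 lower against 1193 and 369. The Wnt genes called lower numbered 0 with the replicate block and 0 in the test against a fold change of 2, and 0 to 1 with one artery left out. The other pathway genes called higher numbered 5 with DESeq2, 5 with library totals, 1 in the test against a fold change of 2, 11 without control artery 4 and injured artery 3 together (chosen after seeing the data), and 3 to 11 with one artery left out. Over all genes tested, the higher calls in these settings were, in the same order, 1601, 1424, 600, 1800 and 945 to 1817. The other pathway genes called lower numbered 2 with upper-quartile factors, 1 with the replicate block, 0 in the test against a fold change of 2, and 0 to 5 with one artery left out, with 0 without control artery 3 and 5 without control artery 4. Over all genes tested, the lower calls were 296 with upper-quartile factors, 234 with the replicate block and 61 in the test against a fold change of 2. Without control artery 3 they were 262, and without control artery 4 they were 581. The cause of these shifts was not tested.

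The deviations of same-numbered arteries correlated at 0.30, 0.45, -0.52 and -0.42, and 2 of 4 injured arteries correlated best with their own number, so the numbers were not shown to pair the arteries. With the replicate block, 953 genes were called higher and 234 lower over all genes. A minimum of 10 counts in every artery removed Wnt16 from the test and left 715 genes higher and 292 lower, and the test against a fold change of 2 gave 600 and 61. FDR alone called 918 genes lower, and with one artery left out 197 to 581 genes were called lower and 945 to 1817 higher. Depth limits Wnt4 and Wnt16, whose control counts lay near the floor of 3.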
